A study of Mus musculus with 10 samples.

Results

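The 10 neuroretina libraries of this study carry even numbers from 2 to 20 in the labels. The 5 libraries numbered above 10 (PBS 14, PBS 18, CNP 12, CNP 16 and CNP 20) are described here against the 5 numbered up to 10 (PBS 2, PBS 6, PBS 10, CNP 4 and CNP 8), which together make up all 10 libraries of the series. The division was chosen by the library number, and it was proposed because the counts of these same libraries part along it. Every difference between the sets is therefore a description of values that chose the division, its standard errors and calls included, and none of them is read as a test. The labels do not say what the number stands for.

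Polyadenylated RNA of the neuroretina, the neural part of the eye's light-sensing tissue without the pigmented layer behind it, was counted per gene by bulk sequencing. All animals were female C57BL6/JRj mice killed 14 days after an intravitreal injection of 1 µL. The CNP libraries received graphitic carbon nitride particles (hg-C3N4, 1 mg/mL) suspended in PBS, a buffered saline, and the PBS libraries that saline alone, so both treatments share the injection. Neither ages nor whether each library came from 1 animal of its own are stated, so the spread between libraries may be technical in part. The set above 10 held 2 PBS and 3 CNP libraries and the set up to 10 held 3 PBS and 2 CNP libraries. Treatment was a term in every fit over both treatments, except in an alternative made without it.

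The retina is built in layers. Rods and cones, the photoreceptors, lie at the outer face and turn light into a signal through phototransduction. Bipolar, horizontal and amacrine cells pass that signal on and shape it, ganglion cells send it to the brain, and Müller glia span all layers. The retinal pigment epithelium lies behind the photoreceptors, renews their visual pigment and takes up shed outer segments; it is a separate tissue that can stay attached when a neuroretina is peeled off. In bulk RNA, fewer cells of a type and less RNA per cell cannot be told apart.

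Libraries numbered above 10 held more photoreceptor, pigment epithelium, mitochondrial and ribosomal protein transcripts relative to the library. Libraries up to 10 held more transcripts of bipolar, amacrine and ganglion cells and of some horizontal cell genes. Of 11499 genes that passed edgeR's default filter on low counts, 3568 (31.0%) had an adjusted p under 0.05 in the fit with treatment as covariate, called here, of which 1651 (14.4%) were higher above 10 and 1917 (16.7%) lower. For 1129 genes (9.82%) all 5 libraries above 10 lay over all 5 others, and for 1237 (10.8%) all 5 lay under them. A difference of at least 2-fold was reached by 86 called genes that were higher and 231 that were lower. The median log2 difference (above 10 minus up to 10, on counts scaled by TMM) over all tested genes was -0.02. On the first principal component of log2 CPM (counts scaled to a common library size after TMM), with 44.6% of the variance, the libraries up to 10 lay between -32.6 and -6.33 and those above 10 between 11.02 and 38.2. The pair next to the boundary, PBS 10 at -6.33 and CNP 12 at 21.2, lay on either side, while PBS 14 stood farthest out at 38.2. Leaving out PBS 14 left 1058 genes called higher and 1259 lower.

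Several library measures moved with the sets. Total counts ran from 4325794 to 5428697 up to 10 and from 3328518 to 4337612 above 10. The share of counts from mitochondrial genes was 1.96 to 2.39% up to 10 and 3.21 to 4.45% above 10. It includes the mitochondrial ribosomal RNAs, at 0.919 to 1.25% up to 10 and 1.46 to 2.68% above 10. It lacks 5 of 13 listed mitochondrial genes, which were at 0 counts, so it is not a full mitochondrial fraction. The share from the 50 most abundant genes was 21.02 to 23.4% up to 10 and 23.8 to 29.0% above 10. TMM scaling factors were 1.03 to 1.10 and 0.848 to 0.973, and scaling by library totals alone gave 639 genes higher and 3772 lower, with the median of all genes at -0.23. With the log2 total count as a further covariate 0 genes were called higher and 1 lower, and with the pigment epithelium score (the mean log2 CPM of that list's members in a library) 0 and 0. The list medians were then 0.50 and 0.31 for rods (0.47 without a covariate), 0.95 and 0.71 for mitochondrial genes (1.13), 0.44 and 0.25 for ribosomal proteins (0.53), and -0.51 and -0.32 for amacrine cells (-0.78). Both covariates moved closely with the sets, so these fits cannot separate either covariate from the set. After every library was thinned to 3328518 counts, 1496 genes were called higher and 1749 lower.

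**Figure D1:**
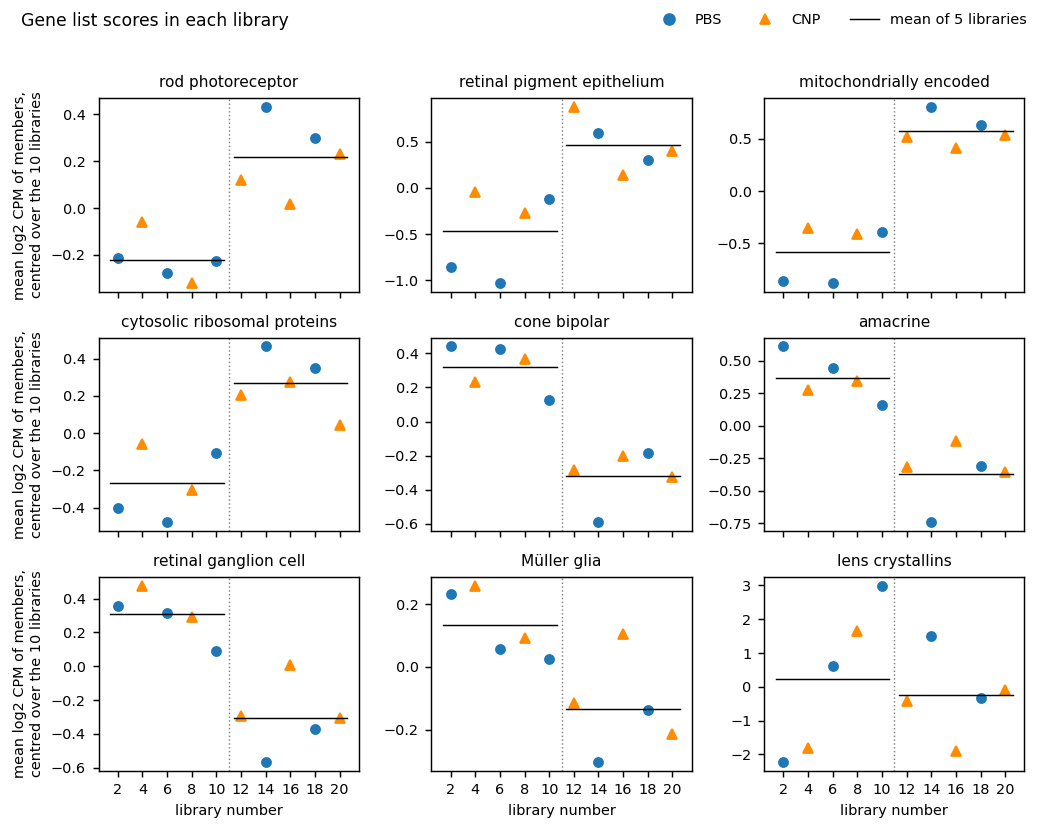
Score of 9 gene lists (mean log2 CPM of the tested members, centred over the 10 libraries; vertical axes differ) against the library number, with circles for PBS, triangles for CNP, a dotted line between the sets and horizontal lines for the means of 5 libraries. The rod, pigment epithelium, mitochondrial and ribosomal scores of all 5 libraries above 10 exceed those of the 5 others, the bipolar, amacrine and ganglion cell scores lie below, and the Müller glia and crystallin scores overlap.

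Rod transcripts were higher above 10. Of the 22 rod genes, all tested, 17 were called higher and 0 lower (14.4% and 16.7% of all tested genes were called in those directions), and all 22 differences were positive, from 0.13 to 0.78 on the log2 scale with a median of 0.47. With scaling by totals 12 were called higher and the median was 0.26. Rom1 (ENSMUSG00000071648), a tetraspanin of the outer segment discs, had CPM values of 6204 in PBS 2, 8311 in CNP 4, 7885 in PBS 6, 7055 in CNP 8 and 7920.1 in PBS 10, against 12114 in CNP 12, 17401 in PBS 14, 11343 in CNP 16, 10948 in PBS 18 and 11524 in CNP 20. All 5 libraries above 10 exceeded the others, PBS 14 by most, and the log2 difference was 0.78 (SE 0.14), 1.71-fold. Guca1b, a calcium sensor that activates guanylate cyclase after a flash, had CPM values of 3125 in PBS 2, 3984 in CNP 4, 3724 in PBS 6, 3339.8 in CNP 8 and 3890.4 in PBS 10, and 5406 in CNP 12, 7471 in PBS 14, 5090.2 in CNP 16, 5276 in PBS 18 and 5198 in CNP 20. Its sets did not overlap either, with PBS 14 again the highest and a log2 difference of 0.67 (SE 0.12).

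Nr2e3 and Nrl, the transcription factors that set rod identity, lay at 476 to 657 CPM up to 10 and 775 to 934 CPM above 10 for the first and 1426 to 1705 CPM up to 10 and 1852 to 2318 CPM above 10 for the second. Neither gene's sets overlapped, and the log2 differences were 0.61 (SE 0.09) and 0.40 (SE 0.09). Of 13 tested photoreceptor transcription factors, 3 were called higher and 0 lower, the third being Otx2 at 0.27 (SE 0.09). Over all tested genes 14.4% were called higher and 16.7% lower, so this small count is not read as a difference of the list. It was 2 without PBS 14, CNP 4, PBS 18 or CNP 12, and the list's score overlapped between the sets. The median of that list was 0.17, but -0.04 with scaling by totals. Proteins that end the light response behaved alike as a list, with 8 of 13 tested genes called higher, 0 lower and a median of 0.43. In the list of outer segment and cilium genes 19 of 28 were called higher and 1 lower, with a median of 0.35. With scaling by totals 5 genes of the light response list were called higher (median 0.21) and 8 of the outer segment and cilium list (median 0.14). Fscn2, an actin bundler of the outer segment, had a log2 difference of 0.74 (SE 0.11) and Unc119, a carrier of lipid-modified photoreceptor proteins, 0.51 (SE 0.09). The exception was Kif3a, a motor of the cilium, at -0.61 (SE 0.12) with 19.9 to 26.5 CPM up to 10 and 13.3 to 16.7 CPM above 10.

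Cone genes parted less evenly. Of 16 genes, all tested, 6 were called higher and 1 lower, and the list's median was 0.20, which became -0.01 with scaling by totals. Gngt2, the gamma subunit of cone transducin, had CPM values of 324 in PBS 2, 353 in CNP 4, 263 in PBS 6, 292 in CNP 8 and 347 in PBS 10, against 523 in CNP 12, 594 in PBS 14, 421 in CNP 16, 582 in PBS 18 and 434 in CNP 20. Gnat2, the alpha subunit of the same G protein, had CPM values of 368 in PBS 2, 365 in CNP 4, 366 in PBS 6, 353 in CNP 8 and 415 in PBS 10, and 519.9 in CNP 12, 506 in PBS 14, 489 in CNP 16, 471 in PBS 18 and 484 in CNP 20. The sets did not overlap for either gene, and the differences were 0.72 (SE 0.11) for Gngt2 and 0.41 (SE 0.08) for Gnat2. Pde6h, the inhibitory subunit of cone phosphodiesterase, differed by 0.64 (SE 0.12) and Guca1a, a cyclase activator, by 0.82 (SE 0.13). Opn1sw, the short-wavelength cone opsin, had 1885 to 2357 CPM up to 10 and 2198 to 2630.3 CPM above 10, which overlapped, and a difference of 0.29 (SE 0.09). The member called lower was Slc24a2, a cone cation exchanger, at -0.61 (SE 0.20) and 6.11 to 8.83 CPM up to 10 and 3.61 to 6.43 CPM above 10.

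Promoters of the genes that move together were read from RefSeq, whose table is on GRCm38.p6, and are shown for 2 photoreceptor genes that were higher above 10. The 250 bases before the start of Gngt1 (the gamma subunit of rod transducin, chr6:3993758-3994007, plus strand) and of Gnat2 (chr3:108092816-108093065, plus strand) are printed 5′ to 3′, with capitals for the letters TAATCC or their complement GGATTA, the core bound by the photoreceptor factors CRX and OTX2.
Gngt1: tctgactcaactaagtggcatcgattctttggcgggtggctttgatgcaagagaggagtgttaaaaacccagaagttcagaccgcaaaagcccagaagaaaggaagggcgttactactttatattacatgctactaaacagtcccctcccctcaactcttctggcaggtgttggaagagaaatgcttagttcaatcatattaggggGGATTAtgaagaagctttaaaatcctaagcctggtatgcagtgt
Gnat2: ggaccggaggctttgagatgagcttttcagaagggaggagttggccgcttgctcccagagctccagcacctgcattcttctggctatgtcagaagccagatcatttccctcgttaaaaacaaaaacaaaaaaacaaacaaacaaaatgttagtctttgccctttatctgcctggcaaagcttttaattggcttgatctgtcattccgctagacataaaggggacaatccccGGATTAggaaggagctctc
Both promoters hold the complement once, 44 bases before the start in Gngt1 and 19 in Gnat2. Gngt1 itself had CPM values of 5669.8 in PBS 2, 7581 in CNP 4, 5363 in PBS 6, 5287 in CNP 8 and 6028 in PBS 10, against 9209 in CNP 12, 13159 in PBS 14, 8458 in CNP 16, 10136 in PBS 18 and 8326 in CNP 20, without overlap and with a log2 difference of 0.73 (SE 0.14). Searched on both strands of 300 bases, TAATCC was in 8 of the 26 rod and cone genes with a promoter in the table (30.8%). It was nearly as frequent in pigment epithelium and melanin genes, at 6 of 22 (27.3%), and was in 8 of 61 inner neuron genes (13.1%). Among all tested genes it was in 658 of 8902 (7.39%), with 138 of 1264 called higher (10.9%) and 96 of 1456 called lower (6.59%). A match is a description of the letters and not a binding site.

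Pigment epithelium transcripts were higher above 10. Of 20 genes in that list 16 passed the filter; 14 were called higher and 0 lower, and the median was 1.01, against 0.33 with the log2 total count as covariate. Kcnj13, a potassium channel of the epithelium's apical face, had CPM values of 10.1 in PBS 2, 21.7 in CNP 4, 8.31 in PBS 6, 17.1 in CNP 8 and 23.8 in PBS 10, and 58.1 in CNP 12, 41.1 in PBS 14, 32.9 in CNP 16, 34.5 in PBS 18 and 37.04 in CNP 20. The sets did not overlap, but those up to 10 varied among themselves, with PBS 2 and PBS 6 lowest, and the difference was 1.28 (SE 0.24), 2.44-fold. Slc16a8, a lactate transporter of this epithelium, had 7.27 to 21.9 CPM up to 10 and 24.4 to 49.5 CPM above 10 and a log2 difference of 1.32 (SE 0.26). Rgr, an opsin that isomerises retinal there, had 200.5 to 535 CPM up to 10 and 638 to 1097 CPM above 10 and differed by 1.19 (SE 0.24). Enpp2, the enzyme autotaxin, differed by 0.79 (SE 0.15) and Cst3, a cysteine protease inhibitor that other cells make as well, by 0.68 (SE 0.10). The exceptions were Mitf, the melanocyte and pigment epithelium transcription factor, at 0.08 (SE 0.31), and Rrh, an opsin-like gene, at -0.28 (SE 0.12). Serpine3, a predicted serine protease inhibitor with the largest log2 difference among called genes of at least 10 CPM, had CPM values of 6.07 in PBS 2, 13.7 in CNP 4, 5.54 in PBS 6, 16.1 in CNP 8 and 20.1 in PBS 10, against 57.5 in CNP 12, 90.6 in PBS 14, 36.4 in CNP 16, 41.3 in PBS 18 and 30.1 in CNP 20. Its libraries above 10 all exceeded the others and the difference was 2.09 (SE 0.34), 4.26-fold.

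Pigment genes were few, since 5 of 10 passed the filter, of which 4 were called higher and 0 lower, or 2 and 0 without PBS 14. The list's score overlapped between the sets. The summed CPM of its 10 genes (on library totals) overlapped as well, at 124 to 239 up to 10 and 109 to 226 above 10. Dct, an enzyme of melanin synthesis, had CPM values of 14.5 in PBS 2, 16.1 in CNP 4, 7.62 in PBS 6, 16.7 in CNP 8 and 18.1 in PBS 10, and 37.6 in CNP 12, 45.00 in PBS 14, 37.4 in CNP 16, 27.7 in PBS 18 and 30.3 in CNP 20. All libraries above 10 lay over the others, and the log2 difference was 1.28 (SE 0.20). Tyrp1, another enzyme of that path, was at 2.08 to 3.88 CPM up to 10 and 2.73 to 11.5 CPM above 10, with overlap and a difference of 1.04 (SE 0.30). Slc24a5, an exchanger of pigment granules, was at -0.22 (SE 0.24). The 250 bases before the start of Kcnj13 (chr1:87394730-87394979, minus strand) and Dct (chr14:118052247-118052496, minus strand) are printed next, from the same table and build, as examples of this group. Capitals mark TCATGTG or its complement CACATGA, the letters of the M-box bound by MITF.
Kcnj13: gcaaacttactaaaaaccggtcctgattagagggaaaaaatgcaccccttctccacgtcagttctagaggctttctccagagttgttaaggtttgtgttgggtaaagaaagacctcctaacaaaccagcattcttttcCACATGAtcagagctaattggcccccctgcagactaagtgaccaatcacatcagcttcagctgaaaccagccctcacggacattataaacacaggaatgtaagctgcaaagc
Dct: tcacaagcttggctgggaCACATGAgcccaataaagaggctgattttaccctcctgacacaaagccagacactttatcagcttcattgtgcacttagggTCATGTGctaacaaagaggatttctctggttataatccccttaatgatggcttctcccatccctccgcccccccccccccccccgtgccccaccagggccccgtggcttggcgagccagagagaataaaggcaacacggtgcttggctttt
Kcnj13 holds CACATGA 112 bases before the start, and Dct holds it 232 and TCATGTG 151 bases before. On both strands of 300 bases TCATGTG was in 5 of 22 pigment epithelium and melanin genes in the table (22.7%) and in 221 of 8902 tested genes (2.48%). Genes called higher and lower held it about equally often, at 35 of 1264 (2.77%) and 41 of 1456 (2.82%). Inner neuron genes held it in 3 of 61 (4.92%).

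**Figure D2:**
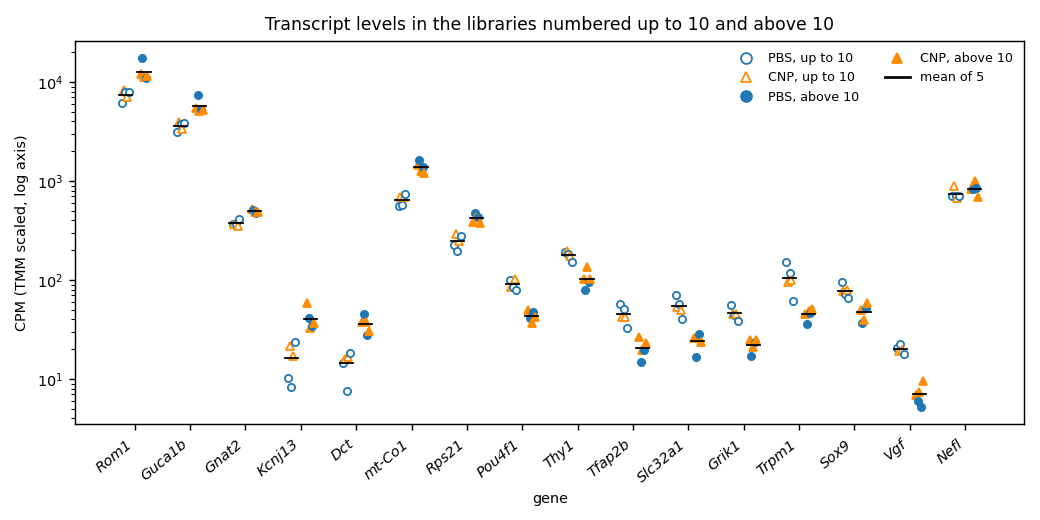
CPM on a log axis of 16 genes, with open symbols for libraries up to 10, filled symbols for libraries above 10, circles for PBS, triangles for CNP and bars for means of 5 libraries. From Rom1 to Rps21 the libraries above 10 are higher, from Pou4f1 to Vgf they are lower, and the sets overlap for Nefl.

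Amacrine cells, the inhibitory interneurons of the inner retina, had lower transcript levels above 10. Of 24 genes 22 passed the filter; 18 were called lower and 0 higher, all differences were negative, and the median was -0.78. Slc32a1, the vesicular transporter of GABA and glycine, had CPM values of 70.1 in PBS 2, 53.9 in CNP 4, 56.8 in PBS 6, 49.4 in CNP 8 and 40.4 in PBS 10, against 26.2 in CNP 12, 16.6 in PBS 14, 27.1 in CNP 16, 28.6 in PBS 18 and 23.4 in CNP 20. All libraries above 10 lay below the others, PBS 14 lowest, and the difference was -1.15 (SE 0.16), 2.23-fold lower. Tfap2b, a transcription factor of amacrine cells, had CPM values of 56.8 in PBS 2, 42.03 in CNP 4, 51.2 in PBS 6, 42.00 in CNP 8 and 32.95 in PBS 10, and 26.5 in CNP 12, 14.8 in PBS 14, 19.8 in CNP 16, 19.5 in PBS 18 and 22.9 in CNP 20. Its sets also stood apart, with a difference of -1.14 (SE 0.17), and its relative Tfap2a differed by -1.07 (SE 0.16). C1ql2, a secreted synaptic organiser, was at 64.8 to 104 CPM up to 10 and 28.4 to 49.8 CPM above 10. Of the 4 members not called, Meis2 at -0.10 (SE 0.09) and Pvalb at -0.08 (SE 0.09) were nearest to 0; Meis2 is a transcription factor and Pvalb a calcium buffer.

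Ganglion cell genes were lower in the same libraries. Of 21 genes 18 passed the filter, 15 were called lower and 0 higher, and the median was -0.73. Pou4f1, the transcription factor BRN3A of ganglion cells, had CPM values of 101 in PBS 2, 84.1 in CNP 4, 84.8 in PBS 6, 102 in CNP 8 and 79.4 in PBS 10, against 49.4 in CNP 12, 41.7 in PBS 14, 37.1 in CNP 16, 47.8 in PBS 18 and 42.8 in CNP 20. The sets were far apart relative to their spread, and the difference was -1.05 (SE 0.11), 2.07-fold lower. Thy1, a surface glycoprotein of ganglion cells, was at 151 to 195 CPM up to 10 and 79.7 to 134 CPM above 10. Its sets did not overlap, with CNP 16 nearest to the set up to 10, and the difference was -0.85 (SE 0.11). Rbpms, an RNA-binding protein found in all ganglion cells, differed by -0.72 (SE 0.11). The neurofilament subunits parted from each other: Nefm was at 22.7 to 48.8 CPM up to 10 and 10.9 to 18.6 CPM above 10 and differed by -1.25 (SE 0.16), while Nefl was at 669 to 899 CPM up to 10 and 689 to 993 CPM above 10 and differed by 0.17 (SE 0.11), with overlap. Gap43, a growth cone protein, at -0.21 (SE 0.12) and Jam2, a junction protein of a ganglion cell subtype, at 0.12 (SE 0.08) were not called either.

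Bipolar and horizontal cell genes followed the same direction. In the cone bipolar list 14 of 15 genes passed the filter, 12 were called lower and 1, Otx2, higher, with a median of -0.73; Otx2 is also a photoreceptor gene. Grik1, the kainate receptor subunit of OFF bipolar cells, had CPM values of 55.3 in PBS 2, 45.7 in CNP 4, 44.3 in PBS 6, 45.6 in CNP 8 and 38.6 in PBS 10, against 24.99 in CNP 12, 16.9 in PBS 14, 21.2 in CNP 16, 23.4 in PBS 18 and 24.9 in CNP 20. The sets did not overlap, and the log2 difference was -1.06 (SE 0.13). Vsx1, a bipolar transcription factor, differed by -0.88 (SE 0.14) and Scgn, a calcium-binding protein, by -0.81 (SE 0.10). Of 11 rod bipolar genes, all tested, 6 were called lower and 0 higher, with a median of -0.36. Trpm1, the channel that opens in ON bipolar cells in light, had CPM values of 151 in PBS 2, 95.8 in CNP 4, 118 in PBS 6, 99.5 in CNP 8 and 61.98 in PBS 10, and 45.8 in CNP 12, 35.9 in PBS 14, 48.8 in CNP 16, 46.2 in PBS 18 and 50.7 in CNP 20. Its lowest library up to 10, PBS 10, still exceeded the highest above 10, and the difference was -1.21 (SE 0.19). Grm6, the glutamate receptor upstream of that channel, differed by -0.51 (SE 0.09). The 5 members not called were Cacna1s, a calcium channel gene at a low level, at 0.36 (SE 0.31), Gng13, a G protein subunit, at 0.13 (SE 0.10), Pcp2, a regulator of G proteins, at 0.01 (SE 0.11), Sebox, a homeobox gene, at -0.06 (SE 0.09) and Car8, a carbonic anhydrase relative, at -0.36 (SE 0.14). The sets overlapped for all 5. For horizontal cells 5 of 10 genes passed the filter and 3 were called lower, or 2 without PBS 14. They were Slc4a3, an anion exchanger, at -0.87 (SE 0.10), Calb1, a calcium buffer also made by amacrine cells, at -0.56 (SE 0.12), and Tpm3 at -0.36. Lhx1 was tested and not called, and Onecut1 and Onecut2 did not pass the filter.

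Müller glia genes were called mostly lower, and vascular and immune genes about as often as all tested genes or less often. Over all tested genes 14.4% were called higher and 16.7% lower. The share of Müller glia genes called higher was below the first of these. Of 22 Müller glia genes, all tested, 10 were called lower and 2 higher, and the median was -0.34. Sox9, a transcription factor of these glia, had CPM values of 96.3 in PBS 2, 78.04 in CNP 4, 72.02 in PBS 6, 78.4 in CNP 8 and 65.5 in PBS 10, against 49.7 in CNP 12, 37.1 in PBS 14, 39.5 in CNP 16, 52.1 in PBS 18 and 58.4 in CNP 20, without overlap and with a difference of -0.74 (SE 0.13). Slc1a3, the glutamate transporter GLAST, differed by -0.67 (SE 0.14) and Dkk3, a secreted protein, by -0.53 (SE 0.11). Glul, the enzyme glutamine synthetase, had 984 to 1229 CPM up to 10 and 811 to 1239 CPM above 10 and was not called, at -0.19 (SE 0.11). The 2 members called higher, of which 0 were called without PBS 14 or without CNP 12, were Rdh10, a retinol dehydrogenase, at 0.42 (SE 0.13) and Dbi, an acyl-CoA binding protein, at 0.30 (SE 0.09). The log2 difference of Dbi was -0.11 once the trend on transcript length was removed, and the log2 difference of Rdh10 was -0.11 with the pigment epithelium score as covariate. Gfap, the filament of astrocytes and reactive glia, overlapped at 34.6 to 68.5 CPM up to 10 and 34.2 to 58.8 CPM above 10. Of 12 microglia genes 1 was called, Ctss, a lysosomal protease, lower at -0.39 (SE 0.14), a call lost without PBS 14 and without 6 other single libraries, and Aif1, a marker of microglia, was at 2.77 to 5.46 CPM up to 10 and 2.73 to 6.64 CPM above 10. In the macrophage list 1 of 8 tested genes was called, Lyz2, a lysozyme, higher at 0.70 (SE 0.25), a call lost without any 1 of 7 libraries. Of 16 endothelial genes 2 were called lower, Kdr, the main receptor for VEGF, at -0.74 (SE 0.16) and Esam, an adhesion molecule, at -0.64 (SE 0.13), and the median of the list was -0.08. Vtn, vitronectin, of the pericyte list, was higher at 0.49 (SE 0.08).

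**Figure D3:**
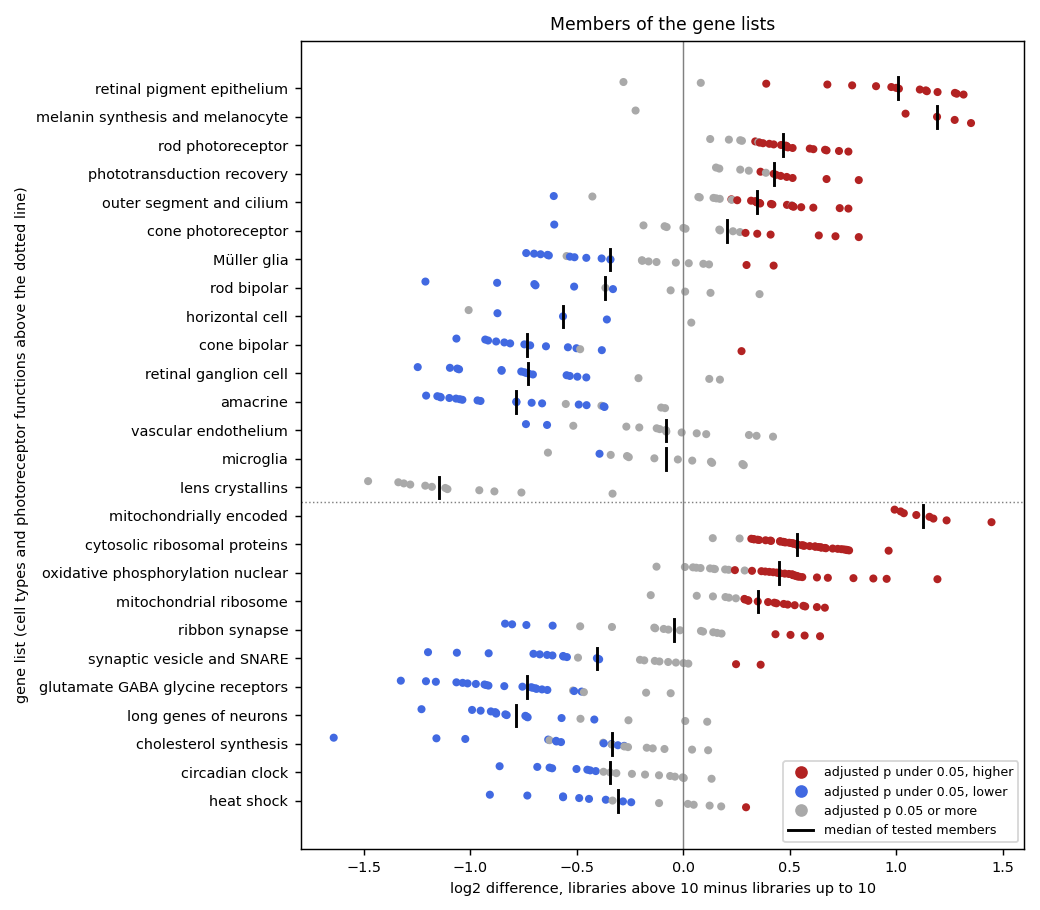
Log2 difference (above 10 minus up to 10) of each tested member of 26 gene lists, coloured by whether its adjusted p was under 0.05, with a black bar at the list's median. Pigment epithelium, melanin, rod and mitochondrial members lie mostly to the right of 0 and cone bipolar, ganglion, amacrine and receptor members mostly to the left, while crystallin members lie left without a call.

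Transcripts of the energy and protein synthesis machinery were higher above 10. Of 13 mitochondrially encoded genes 8 passed the filter and the other 5 were at 0 counts in all libraries, for a reason that was not tested. All 8 were called higher, with a median of 1.13. Of these mt-Co1, a subunit of cytochrome oxidase, had CPM values of 558 in PBS 2, 685 in CNP 4, 573 in PBS 6, 695 in CNP 8 and 737 in PBS 10, against 1435 in CNP 12, 1616 in PBS 14, 1253 in CNP 16, 1394 in PBS 18 and 1217 in CNP 20. The sets stood apart by more than the spread within either, and the difference was 1.09 (SE 0.11), 2.14-fold. The largest difference of the list, at mt-Nd3, was 1.45 (SE 0.22). The ribosomal RNA mt-Rnr1, outside that list, differed by 1.17 (SE 0.15). Of 37 nuclear genes of oxidative phosphorylation, all tested, 26 were called higher and 0 lower, with a median of 0.45; Ndufb8, of complex I, differed by 1.19 (SE 0.15), Uqcrq, of complex III, by 0.96 (SE 0.13) and Atp5k, of the ATP synthase, by 0.68 (SE 0.10). Cox8b, an oxidase subunit best known from muscle and brown fat, was low and differed by 1.57 (SE 0.25).

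Cytosolic ribosomal proteins parted as a body, since 40 of 42, all tested, were called higher and 0 lower, with a median of 0.53. Rps21 had CPM values of 228 in PBS 2, 292 in CNP 4, 197 in PBS 6, 249 in CNP 8 and 279 in PBS 10, and 381 in CNP 12, 476 in PBS 14, 434 in CNP 16, 436 in PBS 18 and 376 in CNP 20. Its libraries above 10 all lay over the others, at 0.76 (SE 0.11), and Rplp1 and Rps14 differed by 0.70 (SE 0.11) and 0.96 (SE 0.15). Many ribosomal protein genes have near-identical copies in the genome, among which the authors' counting could have divided reads. The mitochondrial ribosome had 15 of 21 genes higher and 0 lower, with a median of 0.35, and Mrpl53, outside the list, differed by 0.91 (SE 0.11). Once the trend on transcript length was removed, 9 of those 21 were called higher, with a median of 0.19. Glycolysis had 4 genes called in each direction among 21 and a median of -0.01, with 1 called higher without PBS 14 or PBS 18. These counts were near the shares of all tested genes, 14.4% called higher and 16.7% lower. Splicing factors had 3 called higher and 1 lower among 31, with 1 higher without PBS 6, PBS 14 or CNP 20.

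Synaptic lists parted unevenly. Of 24 tested receptors for glutamate, GABA and glycine, 20 were called lower and 0 higher, with a median of -0.73; Gabrr1 and Gabrr2, the GABA receptor subunits of bipolar cells, differed by -0.69 (SE 0.11) and -0.75 (SE 0.11). Among 24 vesicle genes 13 were called lower and 2 higher, with a median of -0.40. Syn1, a vesicle tether of conventional synapses that ribbon synapses lack, had CPM values of 157 in PBS 2, 110 in CNP 4, 130 in PBS 6, 104 in CNP 8 and 70.5 in PBS 10, against 56.3 in CNP 12, 41.4 in PBS 14, 54.5 in CNP 16, 59.2 in PBS 18 and 62.6 in CNP 20. These did not overlap, and the difference was -1.06 (SE 0.18). Among 20 genes of the ribbon synapse, through which photoreceptors and bipolar cells release, 4 were called in each direction. Those counts were near the shares of all tested genes called, 14.4% higher and 16.7% lower. The 4 higher included Stx3, the syntaxin of ribbon terminals, at 0.57 (SE 0.08), Cabp4, a regulator of the photoreceptor calcium channel, at 0.64 (SE 0.10), and Cplx4, a complexin of photoreceptors, at 0.50 (SE 0.09). The conventional complexins Cplx1 and Cplx2 were lower at -0.64 (SE 0.09) and -0.61 (SE 0.11), as was Rims1, an active zone scaffold, at -0.84 (SE 0.13). Long genes of neurons had 14 of 18 tested members called lower and 0 higher, with a median of -0.78, Nrxn3 at -1.23 (SE 0.19) and Rbfox1 at -0.95 (SE 0.15).

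Single genes lower above 10 with the smallest p or the largest differences included the following. Trarg1, a membrane protein known from glucose transporter traffic in fat and muscle, had CPM values of 78.9 in PBS 2, 60.3 in CNP 4, 72.5 in PBS 6, 93.1 in CNP 8 and 73.1 in PBS 10, against 29.2 in CNP 12, 32.6 in PBS 14, 24.3 in CNP 16, 26.7 in PBS 18 and 29.8 in CNP 20. The sets did not overlap, and the difference was -1.40 (SE 0.12), 2.64-fold lower. Vgf, a neuropeptide precursor, had CPM values of 20.4 in PBS 2, 19.2 in CNP 4, 22.3 in PBS 6, 19.5 in CNP 8 and 17.9 in PBS 10, and 6.92 in CNP 12, 6.04 in PBS 14, 7.38 in CNP 16, 5.21 in PBS 18 and 9.45 in CNP 20. It too stood apart in all libraries, at -1.51 (SE 0.15). Chrna6, a nicotinic receptor subunit, Ngfr, the low-affinity neurotrophin receptor, Scn2b, a sodium channel subunit, and Syt4, a synaptotagmin, differed by -1.19 (SE 0.13), -1.02 (SE 0.11), -0.89 (SE 0.10) and -1.10 (SE 0.12). Grm2, a metabotropic glutamate receptor of starburst amacrine cells, was at -1.27 (SE 0.27).

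Among other functions, cholesterol synthesis had 11 of 21 tested genes called lower and 0 higher (median -0.34), or 7 and 0 without PBS 14, with Hmgcs1, an enzyme of an early step, at -0.63 (SE 0.11). Clock genes had 8 of 19 called lower and 0 higher (median -0.34); Dbp, an output factor of the clock, was at 214 to 261 CPM up to 10 and 161 to 214 CPM above 10, and Ciart, a repressor, differed by -0.63 (SE 0.11). Heat shock genes had 9 of 16 called lower and 1 higher (median -0.31), but 3 and 0 without PBS 14 and 5 lower without PBS 2, CNP 4, PBS 6 or PBS 18, with Hsph1 at -0.44 (SE 0.09) and Hspa8 at -0.36 (SE 0.10), both chaperones. Among 18 immediate early genes 4 were called lower and 0 higher (7 lower without CNP 8), near the 16.7% of all tested genes called lower; Egr4 differed by -1.26 (SE 0.29), and Egr1, induced by neuronal activity, was uneven within the sets, with CPM values of 353 in PBS 2, 314 in CNP 4, 132 in PBS 6, 132 in CNP 8 and 134 in PBS 10, against 133 in CNP 12, 129.9 in PBS 14, 153 in CNP 16, 166 in PBS 18 and 164 in CNP 20. Only PBS 2 and CNP 4 were high for Egr1, and it was not called. Malat1, a nuclear non-coding RNA, had 439.7 to 772 CPM up to 10 and 592 to 1560.2 CPM above 10 and differed by 0.97 (SE 0.21). Xist, expressed from the inactive X chromosome of females, had CPM values of 25.6 in PBS 2, 19.01 in CNP 4, 19.04 in PBS 6, 16.1 in CNP 8 and 24.4 in PBS 10, against 176 in CNP 12, 47.1 in PBS 14, 23.1 in CNP 16, 34.8 in PBS 18 and 46.7 in CNP 20, where CNP 12 stood far above all others. Its sets overlapped, and the difference was 1.52 (SE 0.45).

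Transcripts of tissues next to the retina did not all follow the sets. None of 12 tested lens crystallin genes was called, although all 12 differences were negative (median -1.15). The median was -0.24 without PBS 10 or without CNP 8, and -1.71 without PBS 14. Cryaa, a chaperone crystallin of the lens, had CPM values of 82.8 in PBS 2, 125 in CNP 4, 889 in PBS 6, 1739 in CNP 8 and 3087 in PBS 10, and 346 in CNP 12, 1831 in PBS 14, 116 in CNP 16, 361 in PBS 18 and 449 in CNP 20. Its levels varied widely within each set, with a difference of -0.96 (SE 0.76), and Crybb2, a structural crystallin, was at -0.76 (SE 0.74). Of 4 tested muscle genes 2 were called higher, Mylpf, a myosin light chain, at 0.79 (SE 0.20) and Eno3, an enolase, at 0.63 (SE 0.22). The log2 difference of Eno3 was -0.13 with the pigment epithelium score as covariate, and the median of the muscle list was then -0.12, against 0.71 without it and 0.19 without CNP 12. Acta1, skeletal muscle actin, reached 58.7 CPM in CNP 12 and lay between 6.34 and 8.94 CPM in the other libraries.

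Genes on either side of the division differed in transcript length, which is a description as well, since the same counts chose the division. The longest annotated transcript (GENCODE M21) had a median of 1984 nt for genes called higher, 3784.5 nt for genes called lower and 3352 nt for all genes. Among 593 genes of up to 1000 nt, 319 were called higher and 13 lower, with a median log2 difference of 0.40. Among 1735 genes over 4000 and up to 5000 nt, 104 were called higher and 375 lower, with a median of -0.12. The cell type lists parted within a length class as well: of genes over 3000 nt, the 40 photoreceptor members had a median of 0.33 and the 35 inner neuron members -0.75, against -0.10 for all 6515 such genes. When each library's trend on length was removed, a choice made after seeing the data, 1715 genes were called higher and 1690 lower. The rod, pigment epithelium and amacrine medians were then 0.51, 1.00 and -0.89. The oxidative phosphorylation median fell from 0.45 to 0.16 (17 of 37 called higher) and that of ribosomal proteins from 0.53 to 0.28 (30 of 42). The mitochondrial ribosome median fell from 0.35 to 0.19 (9 of 21) and that of mitochondrially encoded genes from 1.13 to 0.85 (7 of 8). Levels moved with the sets too. Of 600 genes with a mean of at least 300 CPM, 328 were called higher and 42 lower, and of 3907 genes under 10 CPM, 196 and 563. The part of length and level in the differences of single genes was not tested.

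**Figure D4:**
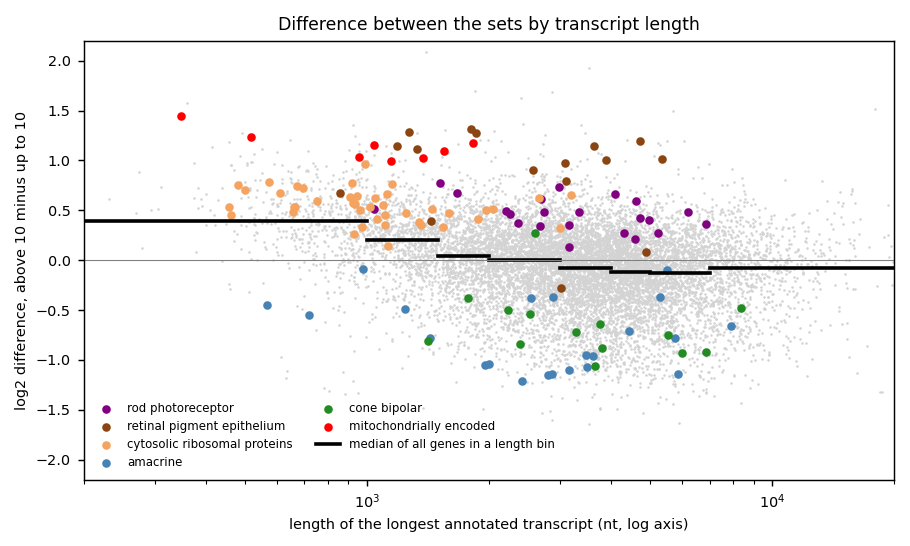
Log2 difference (above 10 minus up to 10) of each gene against the length of its longest annotated transcript on a log axis, in grey, with black bars for medians of all genes in 8 length bins and coloured points for members of 6 lists; 17 genes lie outside the axes. The bars fall from 0.40 for the shortest genes to -0.12 for 4000 to 5000 nt and stand at -0.08 over 7000 nt, the rod and pigment epithelium members lie mostly above the bars and the amacrine members mostly below them.

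The same direction was seen in each treatment. The PBS comparison (PBS 14 and 18 against PBS 2, 6 and 10) and the CNP comparison (CNP 12, 16 and 20 against CNP 4 and 8) share no library. Over the 11499 genes their log2 differences had a Pearson r of 0.73 and a Spearman rho of 0.73, and 78.2% had the same sign; genes are not independent replicates, and both comparisons entered the choice of the division. PBS libraries alone gave 947 genes higher and 984 lower, and CNP libraries alone 184 and 314. Calls in the lists were fewer in CNP libraries as well. In PBS and CNP libraries alone, 18 and 3 of 22 rod genes were called higher, and 14 and 2 of 16 pigment epithelium genes. For ribosomal proteins these were 39 and 3 of 42, and for mitochondrially encoded genes 8 and 7 of 8. Of 22 amacrine genes 14 and 9 were called lower. List medians within PBS and within CNP were 0.64 and 0.31 for rods, 1.28 and 0.73 for pigment epithelium, -0.80 and -0.65 for cone bipolar cells, and 0.72 and 0.35 for ribosomal proteins. Pou4f1 differed by -0.98 (SE 0.16) within PBS and -1.12 (SE 0.15) within CNP. For Kcnj13 the differences were 1.46 (SE 0.35) within PBS and 1.12 (SE 0.35) within CNP.

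**Figure D5:**
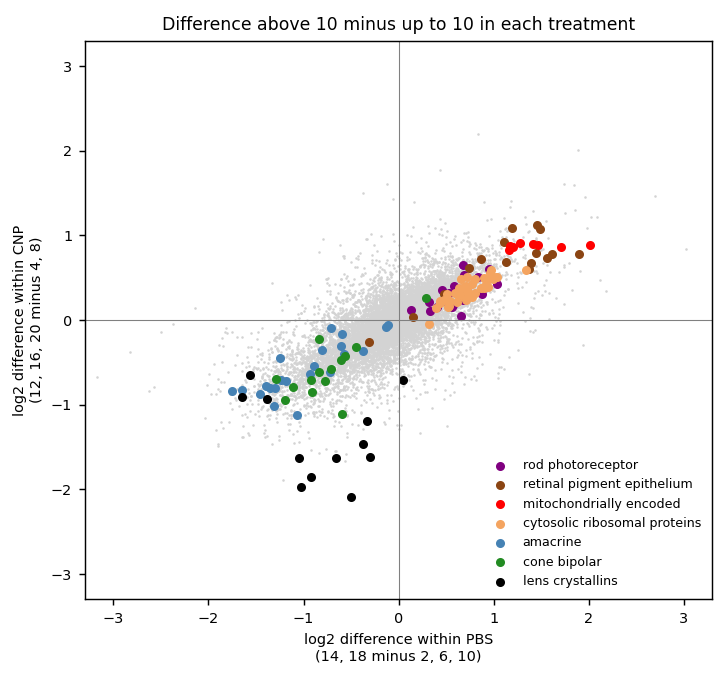
Log2 difference between the sets among the CNP libraries against that among the PBS libraries, for all 11499 genes in grey and the members of 7 lists in colour. Rod, pigment epithelium, mitochondrial and ribosomal members lie mostly in the upper right quadrant, amacrine and cone bipolar members mostly in the lower left, and the PBS values are larger for most of the mitochondrial members.

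Whether the difference between the sets depended on the treatment was also asked. The libraries of both treatments entered the choice of the division, so a lack of interaction is a description and not an independent test. By edgeR's interaction of treatment and set, 0 of 11499 genes (0%) passed an adjusted p of 0.05 (smallest adjusted p = 0.999), 378 had an unadjusted p under 0.05, DESeq2 called 1 and limma-voom 0. Those 378 are fewer than the share of 0.05 that evenly spread p-values would give, so the genes named next are a ranking only. The gene symbols with the smallest p included Serpine2, a protease inhibitor, with an interaction of 1.01 (SE 0.23) on the log2 scale, Upk3b, a membrane protein of the mesothelium, with -2.18 (SE 0.52), and Grid1, a glutamate receptor of the delta family, with 2.28 (SE 0.57). Upk3b was at 0.674 to 2.81 CPM up to 10 and 4.21 to 11.1 CPM above 10, which did not overlap, and its set difference was 3.02 within PBS and 0.84 within CNP. The mitochondrial ribosomal RNA mt-Rnr2 had an interaction of -1.02 (SE 0.22), and Wdr34, a dynein chain, -0.72 (SE 0.20).

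Taking the set into account did not bring out a treatment effect that passed. For CNP against PBS with the set as covariate, edgeR called 0 of 11499 genes (0%; smallest adjusted p = 0.9996, with 272 genes at an unadjusted p under 0.05), and DESeq2 and limma-voom called 0. Here too the 272 are fewer than the share of 0.05 that evenly spread p-values would give. The genes named next had the smallest p and did not pass. Lyz2 had a treatment difference (CNP minus PBS) of 1.17 (SE 0.25) on the log2 scale, Ddx23, a helicase of the spliceosome, 0.97 (SE 0.21), and Kif5a, a neuronal motor, 0.44 (SE 0.11). The median absolute log2 value over all genes was 0.08 for the treatment, against 0.26 for the set and 0.19 for the interaction. The common biological coefficient of variation was 13.7%.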

How the data were processed

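Treatment was taken from the labels and the set from the library number. The authors deposited raw whole-number counts per Ensembl gene; STAR and STARsolo with GRCm39 are named per the submitters' processing notes, while annotation release, strand and collapse of molecular identifiers are not stated there, so overlapping and antisense genes may share reads. A count of 0 allowed up to 0.553 to 0.901 CPM (3 counts per library, counting error only). The 45 pairs of libraries differed beyond counting noise (chi-square per degree of freedom 3.99 to 32.6).

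Counts were fitted with edgeR 4.0.16 in R 4.3.3 (filterByExpr by set, minimum count 10; TMM; quasi-likelihood test, two-sided; Benjamini-Hochberg over 11499 genes). CPM are TMM scaled; scores used log2 CPM with a prior count of 2. Members, gene lists (56) and the rule for named genes were chosen with earlier results of these data known. The rule took the 12 genes with the smallest p and the 6 with the largest difference in each direction, up to 4 members per list, a few fixed markers, and the 5 with the smallest p of the interaction and the treatment comparison; Gngt1, Rgr and list members named as exceptions were added after their values were seen. Results for some single genes that this rule picks are left out. Symbols were looked up by Ensembl ID, and counts without a symbol made up 0.881% of the total. Lengths are from GENCODE M21 on GRCm38; no coordinate of the deposited counts is given. The fit was tested on simulated data. Alternatives used DESeq2 1.42.0, limma 3.58.1, other scalings, filters, covariates and left-out libraries. No fit with paired libraries was made, because no number occurs in both treatments.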

Additional observations from a re-analysis of the deposited data

Results flagged for a closer look

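In 26 of the 334 groups of 5 libraries examined (7.78%), the highest or lowest library stood apart from the other 4 by a gap that was large against the group's range (Dixon's test); chance alone gives about 1 in 20 such groups, and the groups share libraries. Of these, 12 were PBS 14, 5 were CNP 4 and 4 were CNP 12.

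Among libraries above 10, PBS 14 stood apart in CPM for Rom1 at 17401 (nearest other 12114), Guca1b at 7471 (nearest other 5406), Gabrr1 at 43.8 (nearest other 60.2), Cryaa at 1831 (nearest other 449), Crybb2 at 1512 (nearest other 425), Fscn2 at 1113 (nearest other 869), Unc119 at 1533 (nearest other 1306), Stx3 at 1621 (nearest other 1359) and Ndufb8 at 2379 (nearest other 1682). Its score of the list synaptic vesicle and SNARE was -0.36, with the nearest other at -0.17. Its score of the list glutamate GABA glycine receptors was -0.69, with the nearest other at -0.32. Its share of counts from crystallin genes was 0.530%, with the nearest other at 0.201%. Among libraries up to 10, CNP 4 stood apart in CPM for Nefl at 899 (nearest other 704), Ctss at 67.6 (nearest other 54.5), Lyz2 at 9.32 (nearest other 4.02) and Pvalb at 224 (nearest other 184). Its share of counts from mitochondrial genes was 2.39%, with the nearest other at 2.07%. Among libraries above 10, CNP 12 stood apart in CPM for Acta1 at 58.7 (nearest other 8.46), Xist at 176 (nearest other 47.1) and Mylpf at 70.8 (nearest other 41.1). Its score of the list skeletal muscle was 1.16, with the nearest other at 0.08. Among libraries above 10, CNP 16 stood apart in CPM for Ngfr at 61.0 (nearest other 43.3) and Dkk3 at 474 (nearest other 356). Among libraries up to 10, PBS 2 stood apart in CPM for Gap43 at 153 (nearest other 172) and Serpine2 at 37.4 (nearest other 31.3). Among libraries up to 10, PBS 10 stood apart in CPM for Gnat2 at 415 (nearest other 368).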

How the results depend on the processing

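No paired analysis was possible because no library number occurs in both treatments. Called genes (higher and lower) numbered 639 and 3772 with library totals only, 0 and 1 with the log2 total count as covariate, 0 and 0 with the pigment epithelium score as covariate, 184 and 314 in CNP libraries only, and 947 and 984 in PBS libraries only, against 1651 and 1917. Both single-treatment fits held fewer libraries than the main fit, and the cause of these changes, that between PBS and CNP included, was not tested. Leaving out 1 library at a time gave 1058 to 1948 higher and 1259 to 2047 lower, the lowest of both without PBS 14. For the interaction, no low-count filter gave 5 and 57 genes, DESeq2 0 and 1, and leaving out 1 library 0 to 1 lower (1 without PBS 18). For CNP against PBS with the set as covariate, no low-count filter gave 13 and 24. List medians that changed sign included cones at -0.0063 and photoreceptor transcription factors at -0.0355 (totals only), ciliary and iris epithelium at 0.69 (stricter filter), skeletal muscle at -0.0450 (log2 total) and -0.12 (pigment epithelium score), and the interferon response at 0.0549 and complement and class I at 0.09 (log2 total), and light and night response at -0.04 and proteasome at -0.05 (totals only); the cause was not tested. Single genes that changed sign were the log2 difference of Rdh10 at -0.11 (pigment epithelium score), the log2 difference of Dbi at -0.11 (length trend removed) and -0.0577 (length and GC trends removed), and the log2 difference of Eno3 at -0.0735 (log2 total) and -0.13 (pigment epithelium score). Over all single genes and alternatives, 3263 values kept direction and side of the threshold, 326 kept direction but lost the call and 44 gained it. Length, GC and paired left-out libraries (PBS 10 with PBS 14: 1293 and 1481) were chosen after seeing the data. Without PBS 14 the calls of Hspa8, Opn1sw, Otx2, Rdh10, Slc24a2 and Tyrp1 were lost as well, and without CNP 4 or CNP 8 that of Xist. In the shallowest library a count of 0 allows up to 0.901 CPM.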
